A study of Mus musculus with 6 samples.

Results

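Wt1, Myrf, Ndnf, Tnfsf11, Cachd1 and Car3 are 6 genes chosen by their measured signals: a strong increase in epiblast stem cell-like (EpiSC-like) cells at day 3, in genes that are no classic epiblast markers, or a sharp drop afterwards. They are 6 of 18193 genes measured, and 12 of the 34945 probe sets whose platform annotation gives a single gene symbol belong to them. The arrays carry RNA of sorted cells from OLV2-1, a mouse embryonic stem cell (ESC) line with the fluorescent protein Venus knocked into the Oct4 locus, so every group carries the reporter. There are 2 arrays for each of 3 groups. Undifferentiated ESC were sorted for Venus and, by the protocol, for the surface protein CD31 (Pecam1). EpiSC-like cells came from aggregates at day 3 of SFEBq, a serum-free floating culture of quickly reaggregated cells that leads towards neural fates, and were sorted as Venus-positive and Pecam1-negative. The third group is the Venus-positive fraction of such aggregates at day 7, for which no Pecam1 gate is named. Trypsin, 1 hour of recovery and antibody staining were used for ESC and day 3 aggregates but EDTA alone for day 7 aggregates, so time in culture, gate and handling cannot be told apart. All arrays come from this single line. Nothing in the labels says that replicates were grown separately, so a p-value here covers only the spread between these samples, which may be technical.

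The 6 genes are known from tissues far from the epiblast. Wt1 encodes a zinc finger transcription factor needed for kidney and gonad formation and expressed in podocytes and mesothelium. Myrf encodes a membrane-anchored transcription factor that cleaves itself, so that its amino-terminal fragment can enter the nucleus, and that oligodendrocytes need to make myelin. Ndnf encodes a secreted protein with fibronectin type III domains, which marks neurogliaform interneurons of the mouse cortex and whose human counterpart is linked to loss of puberty hormones. Tnfsf11 encodes RANKL, the ligand that drives osteoclast formation through the receptor RANK (Tnfrsf11a) and is caught by the decoy receptor osteoprotegerin (Tnfrsf11b). Cachd1 encodes a transmembrane protein that resembles the alpha2delta subunits of calcium channels and that binds Wnt receptors in zebrafish. Car3 encodes a cytosolic carbonic anhydrase with low activity, abundant in slow skeletal muscle, fat and liver.

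Promoter sequences are shown for Cachd1 and Tnfsf11, the 2 of the 6 genes with a window in the set of promoter sequences used here (build GRCm38.p6). That set gave no window for Wt1, Myrf, Ndnf and Car3, which says nothing of their place in RefSeq. Each window runs from 250 bases before to 50 bases after the annotated start, and is given 5′ to 3′ on the strand of the gene. Capitals mark matches, on either strand, to the searched motifs, which were the TATA box written as TATAAA, the CCAAT box, the GC box written as GGGCGG, the POU octamer written as ATGCAAAT and the Tcf/Lef motif written as CTTTGA. The Cachd1 window is chr4:100776429-100776728 on the + strand and the Tnfsf11 window chr14:78307994-78308293 on the - strand.
Cachd1: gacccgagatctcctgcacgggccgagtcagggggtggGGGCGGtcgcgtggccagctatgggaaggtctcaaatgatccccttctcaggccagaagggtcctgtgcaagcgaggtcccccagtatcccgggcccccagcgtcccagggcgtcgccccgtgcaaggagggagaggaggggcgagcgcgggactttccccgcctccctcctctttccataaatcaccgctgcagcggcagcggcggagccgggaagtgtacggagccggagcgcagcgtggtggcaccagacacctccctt
Tnfsf11: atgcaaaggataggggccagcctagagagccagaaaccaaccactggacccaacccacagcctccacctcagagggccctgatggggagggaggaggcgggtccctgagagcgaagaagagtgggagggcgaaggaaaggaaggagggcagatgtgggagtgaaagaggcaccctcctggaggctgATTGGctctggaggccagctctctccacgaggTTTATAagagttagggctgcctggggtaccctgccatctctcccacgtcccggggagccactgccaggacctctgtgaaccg
The Cachd1 window held 25 CpG dinucleotides and 68.3% G or C, and 81.6% of the 32841 windows of this length held fewer CpG. The Tnfsf11 window held 7 CpG and 61.7% G or C, and 47.9% of windows held fewer CpG. The Cachd1 window had a single GGGCGG match starting 212 bases before the start site. The Tnfsf11 window had a match to TATAAA and a match to CCAAT, both on the opposite strand, whose leftmost bases lie 32 and 64 bases before the start site. Among all windows, GGGCGG was found in 35.7%, TATAAA in 13.6% and CCAAT in 37.4%. ATGCAAAT, found in 1.74% of windows, and CTTTGA, found in 16%, were not among the letters of these 2 windows. No matches overlapped.

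Each value is the brightness of a probe set on a linear scale, and all arrays had been brought to the same trimmed mean before deposition, so they say nothing of RNA amount per cell. In sorted bulk RNA, fewer cells that express a gene and less RNA of it per cell cannot be told apart. The labels name no batch, but the highest signals split by replicate number. They were 30793 to 36841 on replicate 1 arrays and 63296 to 66643 on replicate 2 arrays. The arrays of each number are called a set here. Hybridization controls split by replicate number too, with averages of 6549 to 8287 on replicate 1 arrays and 13262 to 16096 on replicate 2 arrays. Poly-A spike-in controls did not follow this split. They averaged 73.3 and 76.9 on the replicate 2 arrays of ESC and EpiSC-like cells and 591 to 826 on the other 4. The labels were checked against 10 stage markers. In EpiSC-like cells against ESC, Fgf5, Pou3f1 and Sox1 rose and Klf4 fell by limma's adjusted p, while Dnmt3b, Nanog, Otx2, Pecam1, Pou5f1 and Zfp42 did not pass. Fgf5, the growth factor of the postimplantation epiblast, read 1009 and 1243 in EpiSC-like cells, against 26.2 and 25.9 in ESC, and Klf4, a naive pluripotency factor, read 1413 and 450 in EpiSC-like cells, against 8870 and 7622 in ESC. Pou5f1, the gene of Oct4, lay between 6244 and 14055 on all 6 arrays, and Pecam1 read 401 and 177 in EpiSC-like cells, against 728 and 343 in ESC. The Pecam1 transcript was thus measured in cells sorted as negative for the protein.

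Differences are given as log2(signal + 16), where 16 is a pseudocount that damps dim signals, with the standard error (SE) of a limma fit over all 18193 genes. In the contrast of EpiSC-like cells with ESC, Wt1 ranked 4, Ndnf 6, Car3 9 and Cachd1 10 among all genes by size of rise. Tnfsf11 ranked 190 and Myrf 664. In the contrast of day 7 with EpiSC-like cells, Wt1 ranked 4, Myrf 5, Tnfsf11 6, Ndnf 13, Car3 19 and Cachd1 354 by size of drop. These 2 contrasts chose the genes, so their values are descriptions and carry no test. In 6 of 6 genes both EpiSC-like arrays read above the other 4 arrays, an order that 11.3% of all genes show. Both EpiSC-like arrays lay above both ESC arrays in 25% of all genes, and both day 7 arrays lay below both EpiSC-like arrays in 24.5%. The choice of the genes fixes these orders. By adjusted p, 1.31% of all genes were higher and 0.583% lower in EpiSC-like cells than in ESC, and 0.022% were higher and 0.0165% lower at day 7 than in EpiSC-like cells.

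Among the transcription factors, Wt1 (NCBI gene 22431) read 69.2 and 2.78 in ESC, 995 and 979 in EpiSC-like cells and 120 and 55.5 at day 7. The EpiSC-like arrays stood apart from the other 4, and the ESC and day 7 arrays overlapped. The ESC signal of replicate 2 is far below the pseudocount, and the spread between the ESC arrays (36.0 ± 46.9, SD, n = 2) is as wide as the mean itself. EpiSC-like cells minus ESC gave 4.65 ± 0.69 (SE), with 3.57 in the replicate 1 set and 5.73 in the replicate 2 set. Day 7 minus EpiSC-like cells gave -3.35 ± 0.69, with -2.90 and -3.80 in the sets. The size of the day 3 rise of Wt1 thus depended on which ESC array was used: without ESC replicate 2 it was 3.56 and without ESC replicate 1 it was 5.74.

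Myrf (NCBI gene 225908) was already bright in ESC, with 680 and 911. It read 1674 and 2147 in EpiSC-like cells and 242 and 228 at day 7. The 3 groups did not overlap: the day 3 arrays were highest and the day 7 arrays lowest. EpiSC-like cells minus ESC gave 1.25 ± 0.26 (1.28 and 1.22 in the sets), the smallest rise of the 6 genes. Day 7 minus EpiSC-like cells gave -2.93 ± 0.26 (-2.71 and -3.15), so that the drop was larger than the rise. The mean signal at day 7 was 0.123 times that of EpiSC-like cells and 0.295 times that of ESC.

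Of the genes of secreted proteins and ligands, Ndnf (NCBI gene 68169) read 40.3 and 29.5 in ESC, 975 and 1254 in EpiSC-like cells and 138 and 183 at day 7. Again the groups did not overlap, here with ESC lowest and day 7 between. EpiSC-like cells minus ESC gave 4.47 ± 0.27 (4.14 and 4.80 in the sets), and the ratio of mean signals was 31.9. Day 7 minus EpiSC-like cells gave -2.68 ± 0.27, with -2.68 in each set. Of the 3 genes with a day 3 difference above 4, Wt1, Ndnf and Car3, Ndnf had the smallest SE.

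Tnfsf11 (NCBI gene 21943) read 115 and 86.4 in ESC, 509 and 387 in EpiSC-like cells and 48.8 and 41.1 at day 7. As for Myrf, the groups did not overlap and day 7 was lowest. EpiSC-like cells minus ESC gave 1.99 ± 0.26 (2.01 and 1.98 in the sets), and day 7 minus EpiSC-like cells gave -2.92 ± 0.26 (-3.02 and -2.82). The mean signal at day 7 was 0.100 times that of EpiSC-like cells. The day 7 signals lie near the pseudocount, which damps this drop.

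Cachd1 (NCBI gene 320508), the calcium channel subunit-like membrane protein gene, read 270 and 158 in ESC, 3371 and 3107 in EpiSC-like cells and 1587 and 1299 at day 7. The groups did not overlap, and day 7 lay between the other two. EpiSC-like cells minus ESC gave 3.87 ± 0.30 (3.57 and 4.16 in the sets). Day 7 minus EpiSC-like cells gave -1.16 ± 0.30 (-1.08 and -1.25), the smallest drop of the 6 genes. On the log2 scale Cachd1 kept 69.9% of its rise at day 7, against 40.1% for Ndnf, 39.5% for Car3 and 28.0% for Wt1. Leaving out each array gave 66.2% to 73.6% for Cachd1, 36.0% to 44.1% for Ndnf and 26.1% to 48.9% for Car3. These ranges come from the probe set used for each gene and do not cover the spread between probe sets. For Wt1 the share was 5.92% without ESC replicate 2 and 41.7% without ESC replicate 1, so its place in this order rests on the ESC arrays.

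Car3 (NCBI gene 12350), the enzyme gene, read 248 and 77.7 in ESC, 2142 and 3330 in EpiSC-like cells and 566 and 385 at day 7. The groups did not overlap, though ESC replicate 1 and day 7 replicate 2 were close. EpiSC-like cells minus ESC gave 4.10 ± 0.52, with 3.03 in the replicate 1 set and 5.16 in the replicate 2 set. Day 7 minus EpiSC-like cells gave -2.48 ± 0.52 (-1.89 and -3.06). Like Wt1, Car3 had a wide ESC spread (163 ± 120, SD, n = 2), and its rise was 3.35 without ESC replicate 2 and 4.84 without ESC replicate 1.

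**Figure D1:**
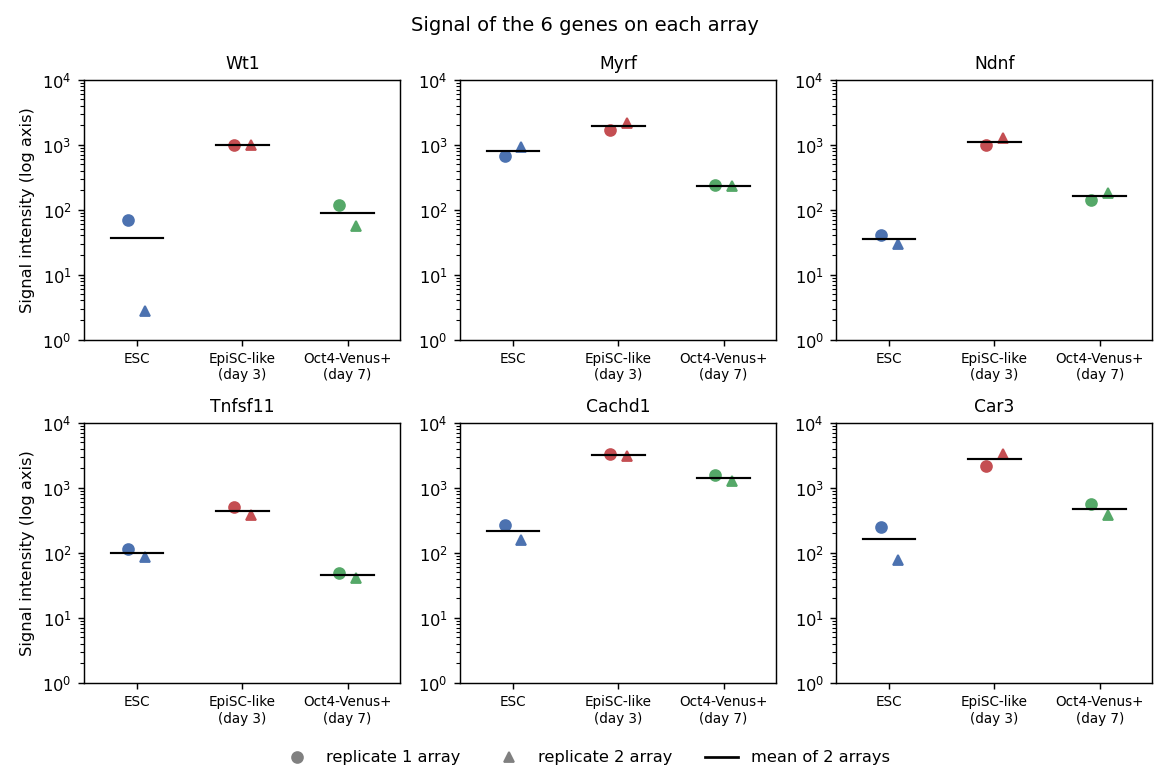
Signal intensity (log axis) of each gene on every array, by group in order of culture time; circles are replicate 1 arrays, triangles replicate 2 arrays and lines the means of 2 arrays. Both EpiSC-like arrays lie above the other 4 in all 6 panels, while the day 7 arrays of Myrf and Tnfsf11 lie below the ESC arrays.

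The 12 probe sets of the 6 genes did not all show the pattern. In 10 of 12 both EpiSC-like arrays were above the other 4 arrays, an order shown by 9.64% of all 34945 probe sets; the 12 include the probe sets that chose the genes, so nothing is read from this count. The second Ndnf probe set (1453225_at) stayed between 0.304 and 16.1 on the 6 arrays, with a difference of 0.24 between EpiSC-like cells and ESC, where the probe set used for Ndnf (1460465_at) gave 4.47. The third Car3 probe set by ID (1453588_at) read 12.1 on the replicate 1 array of EpiSC-like cells, against 15.0 and 13.8 in ESC, and its groups overlapped. The other 2 Car3 probe sets that were not used gave 2.23 (1430584_s_at) and 2.81 (1460256_at), against 4.10 for the one used (1449434_at). The second Cachd1 probe set (1436031_at) gave 2.31, against 3.87 for the one used (1436030_at), and the second Tnfsf11 probe set (1451944_a_at) gave 1.83, against 1.99 (1419083_at). Wt1 and Myrf rest on a single probe set each (1425995_s_at and 1439506_at). Every probe set of Tnfsf11 and Cachd1 thus read higher at day 3, and the size of the difference varied with the probe set. In day 7 minus ESC the Car3 probe set 1453588_at gave -0.57, opposite in sign to the 1.62 of the one used, and the second Ndnf probe set gave 0.09, against 1.79.

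**Figure D2:**
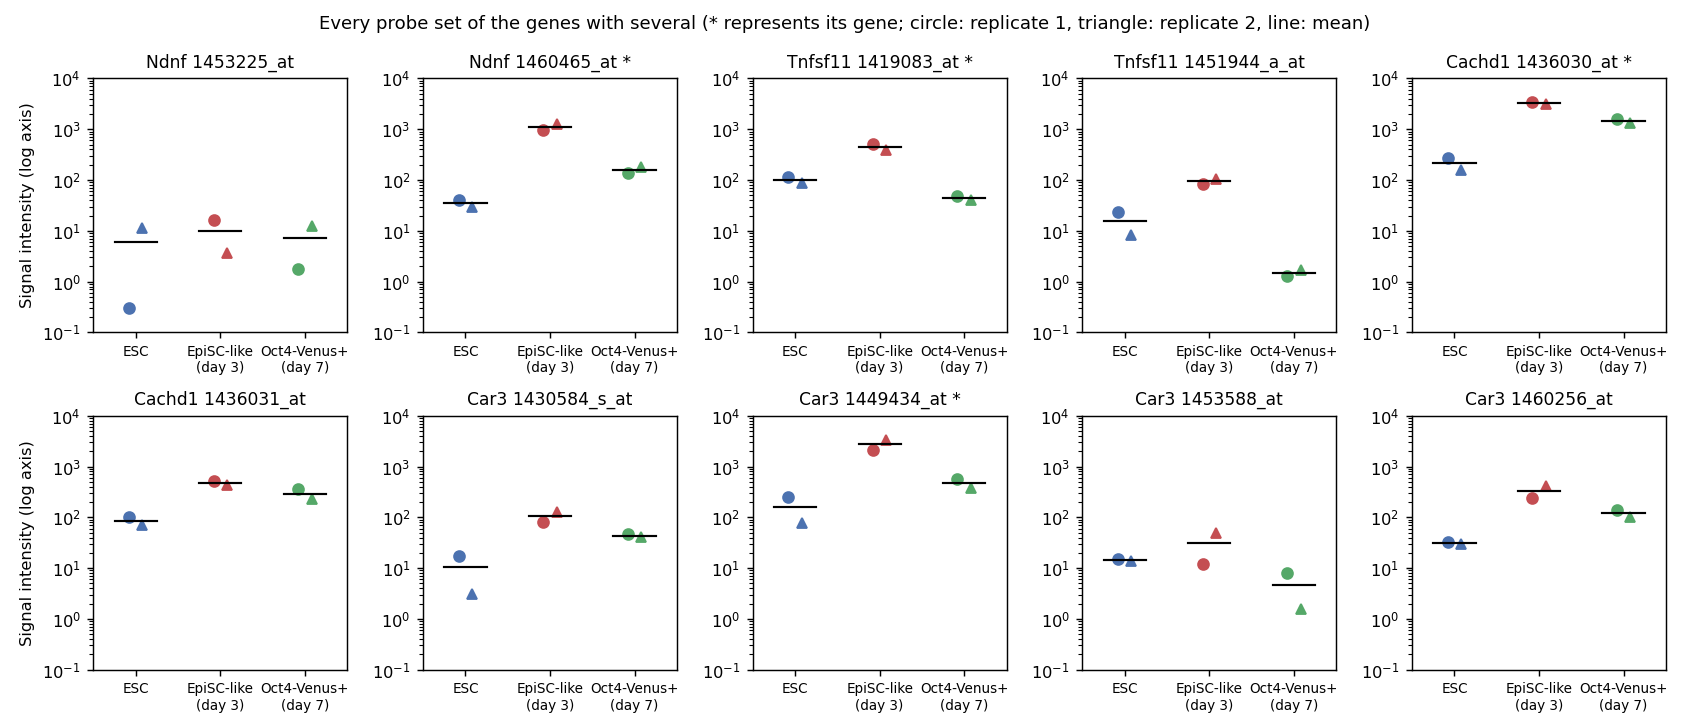
Signal intensity (log axis) of all 10 probe sets of the genes that have several, by group; circles and triangles are replicate 1 and 2 arrays, lines the means, and an asterisk marks the probe set that stands for its gene. The second Ndnf probe set and the Car3 probe set 1453588_at stay dim, with overlapping groups at day 3.

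The contrast of day 7 with ESC, which the choice of the genes does not name, asks whether the day 3 change had been undone by day 7. It uses the ESC and day 7 arrays that also entered the choice, so it is not independent of it. Choice by a day 3 rise favours low ESC values, and choice by a later drop favours low day 7 values. The adjusted p-values of the chosen genes are therefore descriptions here and do not test a difference. For these genes a call means only that such a value was under 0.05. By limma over all genes, Cachd1 (2.70 ± 0.30, adjusted p = 0.0291) was called higher at day 7 than in ESC. Ndnf (1.79 ± 0.27, adjusted p = 0.0459) was also called higher, and Myrf (-1.68 ± 0.26, adjusted p = 0.0495) lower. Both day 7 arrays lay above both ESC arrays for Ndnf, Cachd1 and Car3, an order that 26.6% of all genes show, and below both for Myrf and Tnfsf11, an order that 23.5% show. In this contrast 0.753% of all genes passed as higher and 0.286% as lower. With arrays centred on their median, calls over all genes were 52.9% higher ones, against 72.5% as scaled by the authors. The replicate 1 and 2 sets gave 2.49 and 2.92 for Cachd1, 1.45 and 2.13 for Ndnf, and -1.43 and -1.93 for Myrf.

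The other 3 genes did not pass in day 7 against ESC. Car3 stood at 1.62 ± 0.52 (adjusted p = 0.180), Wt1 at 1.30 ± 0.69 (adjusted p = 0.377) and Tnfsf11 at -0.93 ± 0.26 (adjusted p = 0.144). Their unadjusted 95% intervals carry the same limit from the choice of the genes. They were 0.38 to 2.86 for Car3, -0.35 to 2.96 for Wt1 and -1.56 to -0.30 for Tnfsf11. A return to the ESC level thus lay within the interval for Wt1. The calls of Cachd1, Ndnf and Myrf were lost whichever array was left out (adjusted p from 0.0628 to 0.206 for Cachd1, 0.0839 to 0.271 for Ndnf and 0.0856 to 0.277 for Myrf, by limma). They were also lost with the array set as a block (adjusted p = 0.0665 for Cachd1 and 0.0744 for Ndnf and for Myrf, by limma). The differences had the same sign in all 15 settings tried, which read the probe set used except where all probe sets of a gene were averaged.

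Some other measures also differed at day 7. The log2 ratio of 3' to 5' signal of the actin control, a sign of RNA quality, was 0.71 and 0.94 at day 7, against 0.46 to 0.58 on the other 4 arrays. The same ratio of the Gapdh control did not set day 7 apart. It was -0.12 and -0.18 at day 7, within the -0.36 to 0.01 of the other 4 arrays. The summed signal of 11 adipocyte and hepatocyte markers ranged from 1687 to 2291 at day 7, against 717 to 739 in ESC. Lpl (1457 and 1232 at day 7, against 599 and 526 in ESC) and Ttr made most of the day 7 sum. By limma 0 of the 11 were called in day 7 against ESC. The 12 Cajal-Retzius and neurogliaform markers summed to 1016 to 2898 at day 7, against 830 to 873 in ESC. The 16 gonad and mesothelium markers summed to 10515 to 10552 at day 7, against 7556 to 8522 in ESC. Dmrt1 (5345 and 4533 at day 7, against 2052 and 1460 in ESC) and Wtap (3336 and 3643, against 3865 and 5525) made most of this. The median difference of the 16 was 9.2e-05, with 0 called higher and 1 lower by limma (6.25%, against 0.286% of all genes called lower). The 13 nephron markers summed to 10292 to 11738 at day 7, against 12836 to 15055 in ESC. Actn4 (7424 and 5355 at day 7, against 9372 and 8433 in ESC) made most of that sum. The day 7 arrays differed from each other in single markers chosen after their values were seen: Ttr, a liver and choroid plexus gene, read 89.6 on replicate 1 and 779 on replicate 2, Krt19, an epithelial keratin gene, 152 and 594, and Cited1 59.3 and 461. Without day 7 replicate 2, day 7 minus ESC was 2.84 for Cachd1, 1.61 for Ndnf and -1.64 for Myrf. The part of these measures in the day 7 differences was not tested.

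**Figure D3:**
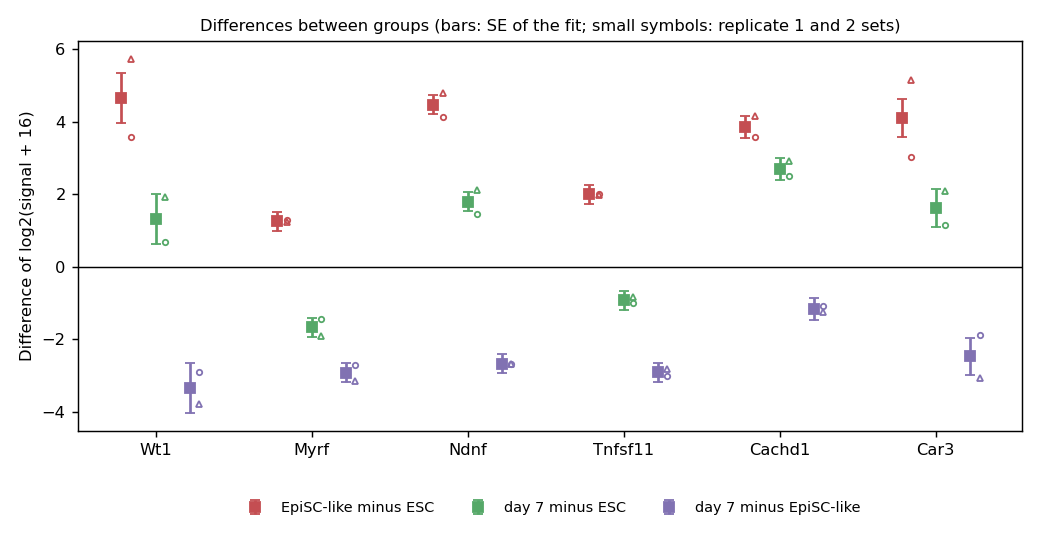
Differences of log2(signal + 16) between groups for each gene; squares are the fitted values with bars of 1 SE, and the small circles and triangles are the differences within the replicate 1 and replicate 2 arrays. Day 7 minus ESC is above 0 for Wt1, Ndnf, Cachd1 and Car3 and below 0 for Myrf and Tnfsf11.

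The genes differed in pattern among themselves. The likeness of 2 genes was measured as the root mean square (RMS) difference of their centred log2 values over the 6 arrays. These arrays are the same for every gene and include both replicate sets, so the likeness is a description only. The closest pairs were Ndnf and Car3 (0.46), Wt1 and Car3 (0.47) and Myrf and Tnfsf11 (0.47), and the farthest was Myrf and Cachd1 (1.84). Among other genes the closest to Wt1 were Pou3f1 (0.49), Pxdc1 (0.62) and Ms4a4d (0.74). The same 3 genes were the closest to Car3, at 0.48 for Pou3f1, 0.47 for Pxdc1 and 0.48 for Ms4a4d. Pou3f1, which encodes a POU transcription factor of the epiblast and neural lineages, read 263 and 89.7 in ESC, 5624 and 5212 in EpiSC-like cells and 1289 and 556 at day 7.

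Closest to Ndnf were the hindbrain homeobox genes Hoxb2 (0.35) and Hoxb1 (0.54) and the Wnt ligand gene Wnt8a (0.55). Hoxb2 read 30.7 and 13.9 in ESC, 599 and 1082 in EpiSC-like cells and 103 and 242 at day 7. Closest to Cachd1 were Hes6 (0.24), the kinase gene Stk39 (0.27) and Sox1 (0.30), a transcription factor gene of early neural cells. Hes6, a basic helix-loop-helix gene, read 234 and 180 in ESC, 2336 and 2129 in EpiSC-like cells and 1193 and 988 at day 7, and it was the nearest of all these matches. Closest to Myrf were Gng3 (0.42), Crct1 (0.43) and the homeobox gene Gbx2 (0.44), and closest to Tnfsf11 were the cadherin gene Cdh10 (0.34), Irgm1 (0.44) and Zfp423 (0.45). Gbx2 read 491 and 305 in ESC, 1173 and 1707 in EpiSC-like cells and 102 and 93.3 at day 7, so that day 7 lay below ESC as it did for Myrf. These matches moved with the settings: of 84 combinations of gene and setting, 26 returned all 3 genes and 14 returned 0 of them. With Pearson correlation as the measure of likeness, 0 of the 3 were returned for Wt1, Myrf, Ndnf, Tnfsf11 and Car3 and 1 for Cachd1. The genes named here thus depend on the choice of the RMS difference.

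To set the 6 genes beside their own pathways, 14 lists of receptors, paralogs, regulators and tissue markers were examined, with 191 of 214 entries measured. The list genes were taken from textbook knowledge, with earlier results of these data known. Of the 191, 5 were higher and 3 lower in EpiSC-like cells than in ESC by limma's adjusted p (4.19%, against 1.9% of all genes), and 4 were higher and 2 lower at day 7 than in ESC (3.14%, against 1.04%). In day 7 against EpiSC-like cells 0 of the 191 passed in limma, with 48 at an unadjusted p under 0.05, and 0.0385% of all genes passed. The median differences of the 191 genes were 0.06, 0.04 and -0.05 in these 3 contrasts, against 0.03, 0.02 and -0.02 for all genes. After leaving out any single array, at most 1 of the 191 was called in a contrast and direction, and with the array set as a block 0 were called. With arrays centred on their median, 55.4% of all calls in EpiSC-like cells against ESC were higher ones, against 69.3% as scaled by the authors.

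Of the markers of tissues known for Wt1, none rose in EpiSC-like cells against ESC by limma's adjusted p. Of 13 nephron progenitor and podocyte genes 0 were called in limma in EpiSC-like cells against ESC (0 also at an unadjusted p under 0.05), with a median of -0.19. The summed signal of these 13 genes ranged from 11076 to 14257 in EpiSC-like cells, against 12836 to 15055 in ESC. Most of it came from Actn4 (8301 and 7280 in EpiSC-like cells, against 9372 and 8433 in ESC) and Sall1 (3662 and 2076, against 2726 and 2191). The sum therefore says little of the other genes on the list. Of 16 gonad and mesothelium genes 0 rose and 1 fell by limma (6.25%, against 0.583% of all genes). Upk3b, a mesothelial surface gene, had 3.54 and 9.33 in EpiSC-like cells, against 114 and 70.4 in ESC (fell by 2.25 ± 0.29, adjusted p = 0.0272). Upk3b was also lower at day 7 than in ESC, with 6.79 and 3.98 at day 7 (fell by 2.31 ± 0.29, adjusted p = 0.0362). The summed signal of the 16 ranged from 7964 to 9110 in EpiSC-like cells, against 7556 to 8522 in ESC. Most of it came from Dmrt1 (4699 and 3058 in EpiSC-like cells, against 2052 and 1460 in ESC) and Wtap (3003 and 3314, against 3865 and 5525). Wtap, which encodes a binding partner of the Wt1 protein and a part of the RNA methylation complex, did not pass (-0.55 ± 0.26, adjusted p = 0.378).

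Markers of oligodendrocytes, where Myrf is best known, did not pass in EpiSC-like cells against ESC: 0 of 16 were called in limma (2 at an unadjusted p under 0.05), and the median was 0.17. Their summed signal ranged from 1981 to 2030 in EpiSC-like cells, against 1800 to 1892 in ESC. At day 7, when Myrf read lower than in ESC, 1 of 16 rose against ESC by limma (6.25%, against 0.753% of all genes). It was Mbp, the gene of myelin basic protein, with 738 and 555 at day 7, against 121 and 78.1 in ESC (2.53 ± 0.29, adjusted p = 0.0291). The transcription factor gene Olig2 stayed between 1.43 and 36.3 on all 6 arrays. The paralog Myrfl stood at -0.42 ± 0.31 (adjusted p = 0.600) and Tmem98, whose protein restrains the cleavage of Myrf, at 0.44 ± 0.31 (adjusted p = 0.573) in EpiSC-like cells against ESC.

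For Ndnf, 18 genes of GnRH neuron migration and of the group expressed with Fgf8 were measured. In EpiSC-like cells against ESC 0 passed in limma (5 at an unadjusted p under 0.05), with a median of 0.22. Fgf8, the growth factor gene that names this group, read 160 and 751 in EpiSC-like cells, against 25.6 and 5.82 in ESC, a difference of 3.61 ± 0.76 that did not pass (adjusted p = 0.0755) and differed between the sets (2.08 and 5.14). Its receptor gene Fgfr1 stood at 1.03 ± 0.25 (adjusted p = 0.107). At day 7 against ESC 1 of the 18 was called by limma (5.56%, against 1.04% of all genes). Spry4, whose protein dampens FGF signalling, fell by 3.76 ± 0.40 (adjusted p = 0.0291). Of 12 genes of Cajal-Retzius and neurogliaform neurons 0 passed at day 3 in limma (2 at an unadjusted p under 0.05), with a median of 0.45. At day 7 against ESC 1 of the 12 rose by limma (8.33%, against 0.753% of all genes), the helix-loop-helix gene Nhlh2 (4.72 ± 0.70, adjusted p = 0.0451). Nhlh2 read 206 and 985 at day 7, against 1.78 and 1.96 in ESC.

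The RANKL receptor genes did not pass the test in EpiSC-like cells against ESC. Tnfrsf11a, the gene of RANK, read 40.6 and 52.5 in EpiSC-like cells, against 34.5 and 77.5 in ESC (-0.14 ± 0.55, adjusted p = 0.943). Tnfrsf11b, the decoy receptor gene, read 35.4 and 18.2 in EpiSC-like cells, against 15.0 and 9.73 in ESC (0.57 ± 0.33, adjusted p = 0.473). Lgr4, which encodes a further receptor of RANKL, read 5054 and 4253 in EpiSC-like cells, against 3829 and 2858 in ESC (0.49 ± 0.26, adjusted p = 0.429). Of 21 receptor and signalling genes 1 was called by limma (4.76%, against 1.9% of all genes). Relb, an NF-kappa-B subunit gene, had 78.1 and 72.1 in EpiSC-like cells, against 226 and 198 in ESC (fell by 1.32 ± 0.23, adjusted p = 0.0474). Of 13 other TNF family ligand genes 0 passed in limma (2 at an unadjusted p under 0.05), with a median of -0.35 and differences between -1.05 and 0.49. Of 9 genes of osteoblasts and lymphoid tissue, which are known sources of RANKL, 0 passed (1 at an unadjusted p under 0.05), with a summed signal of 1983 to 2091 in EpiSC-like cells, against 1462 to 1841 in ESC. Alpl (1229 and 972 in EpiSC-like cells) and Aire (611 and 684) made most of it.

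Around Cachd1, 0 of 18 voltage-gated calcium channel subunit genes passed in EpiSC-like cells against ESC in limma (3 at an unadjusted p under 0.05), with a median of 0.08. The 4 alpha2delta genes stood at 0.14 ± 0.38 for Cacna2d1, 0.21 ± 0.26 for Cacna2d2, 0.35 ± 0.45 for Cacna2d3 and -0.24 ± 0.51 for Cacna2d4. Their adjusted p-values ran from 0.781 to 0.910. Of 12 Frizzled and LRP receptor genes 2 rose and 1 fell (25%, against 1.9% of all genes), and the median was 0.63. Fzd2 read 689 and 940 in EpiSC-like cells, against 126 and 70.5 in ESC (2.89 ± 0.38, adjusted p = 0.0272). Fzd1 read 219 and 176 in EpiSC-like cells, against 66.2 and 68.2 in ESC (1.35 ± 0.23, adjusted p = 0.0470). Fzd5 had 651 and 484 in EpiSC-like cells, against 1588 and 1559 in ESC (fell by 1.46 ± 0.25, adjusted p = 0.0474). All 3 encode receptors for Wnt ligands, and they changed in different directions.

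Some other members of the carbonic anhydrase family were called at day 3 or at day 7. Of 15 genes 2 rose in EpiSC-like cells against ESC (13.3%, against 1.31% of all genes), with a median of 0.03 for the family. Car2, the abundant cytosolic enzyme, read 9250 and 17665 in EpiSC-like cells, against 2505 and 2527 in ESC (2.34 ± 0.35, adjusted p = 0.0352). At day 7 Car2 read 3916 and 3071, a difference of 0.46 ± 0.35 from ESC (adjusted p = 0.540), so that its highest group was also day 3. Car4, a membrane-anchored enzyme, read 650 and 1952 in EpiSC-like cells, against 130 and 149 in ESC (2.88 ± 0.48, adjusted p = 0.0459). At day 7 Car4 read 802 and 826, a difference of 2.42 ± 0.48 from ESC that did not pass (adjusted p = 0.0767). In day 7 against ESC 2 of the 15 rose by limma (13.3%, against 0.753% of all genes), Car8 and Car12. Car8, an isoform without catalytic activity, read 632 and 714 at day 7, against 149 and 71.5 in ESC (2.52 ± 0.36, adjusted p = 0.0424). Car12, a membrane enzyme, read 509 and 477 at day 7, against 91.7 and 119 in ESC (2.08 ± 0.24, adjusted p = 0.0291).

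**Figure D4:**
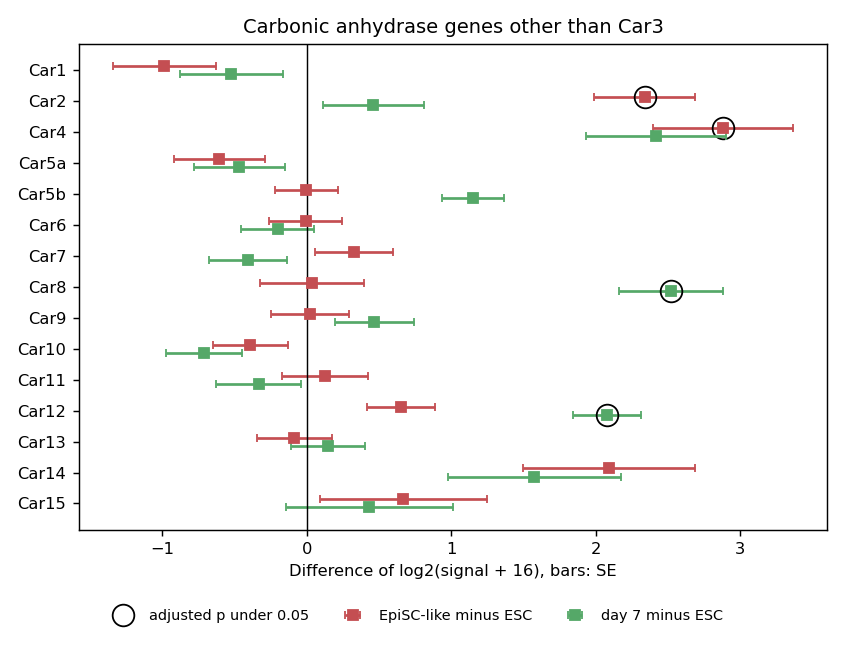
Differences of log2(signal + 16) against ESC for 15 carbonic anhydrase genes other than Car3, with EpiSC-like cells above day 7 in each row and bars of 1 SE; open circles mark an adjusted p under 0.05. Car2 and Car4 are circled for EpiSC-like cells, Car8 and Car12 for day 7.

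Markers of the tissues richest in Car3 were mostly dim. Of 15 skeletal muscle genes 1 rose in EpiSC-like cells against ESC by limma (6.67%, against 1.31% of all genes). Myf5, a myogenic transcription factor gene, had 120 and 92.8 in EpiSC-like cells, against 5.32 and 0.356 in ESC (2.70 ± 0.26, adjusted p = 0.0164). At day 7 Myf5 read 0.734 and 3.52, and its difference from EpiSC-like cells of -2.75 ± 0.26 did not pass (adjusted p = 0.0503). The myogenic factor genes Myod1 and Myog stood at 0.35 ± 0.37 and 0.60 ± 0.38 and did not pass. The summed signal of the 15 muscle genes ranged from 1149 to 1712 in EpiSC-like cells, against 1194 to 1264 in ESC. Of 11 adipocyte and hepatocyte genes 0 passed in limma (0 also at an unadjusted p under 0.05), with a median of -0.03 and a summed signal of 585 to 661 in EpiSC-like cells, against 717 to 739 in ESC. Lpl made most of these sums (454 and 382 in EpiSC-like cells, against 599 and 526 in ESC).

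**Figure D5:**
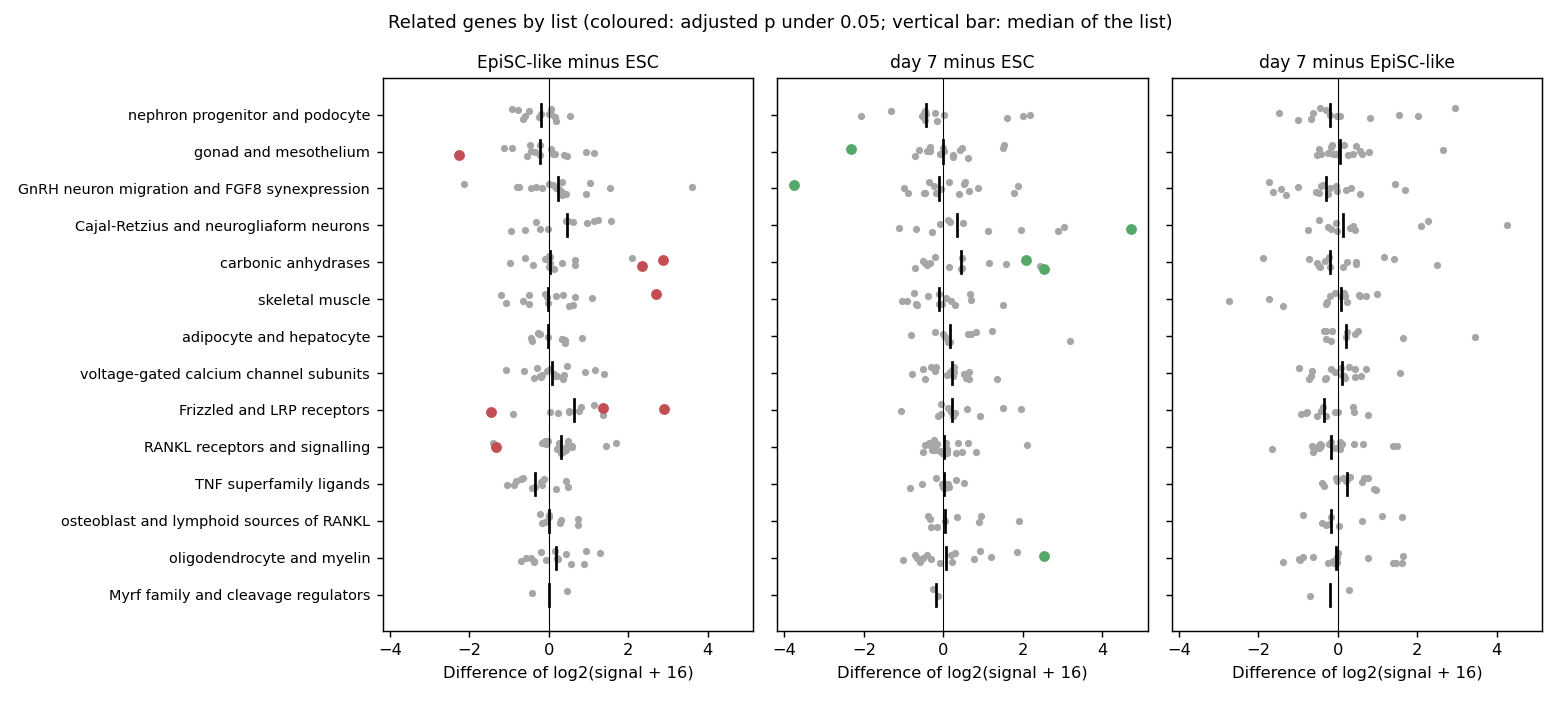
Differences of log2(signal + 16) for the measured genes of 14 lists in the 3 contrasts; grey points are single genes, coloured points have an adjusted p under 0.05 and vertical bars are list medians. At day 3 the Frizzled and LRP receptors hold 3 of the 8 coloured points and the carbonic anhydrases 2, and the right panel holds 0.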

How the data were processed

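RNA of 6 sorted cell samples was measured on Affymetrix 3' expression arrays after biotin labelling. The authors deposited 1 linear signal intensity for every probe set and array. Affymetrix Expression Console (version 1) is named per the submitters' processing notes; its algorithm and a genome build are not given in the sources used here. From the deposited values, the mean signal without the outer 2% of probe sets at each end was 500.003 or 500.004 on every array. Detection calls were not used here, and the precision is limited by 2 arrays per group.

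The table held 45101 probe sets. After removal of 64 controls, a platform annotation table gave a single gene to 34945. Symbols were checked by gene ID against RefSeq (GRCm38.p6), which held 34741 of these and changed 0. Where several probe sets belonged to a gene, the one of highest mean log2 value stood for it. A model of 3 group means on log2(signal + 16) of 18193 genes was fitted with limma 3.58.1 in R 4.3.3, and p-values were adjusted by Benjamini-Hochberg over all genes (threshold 0.05). The fit had 3 residual degrees of freedom, and it was tested on simulated data.

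The 6 genes and the lists were chosen with earlier results of these data known; list genes came from textbook knowledge of each gene's partners and tissues, and 23 entries had no probe set with a single gene. Genes named were the 6, 10 stage markers, called list genes (up to 6 per list), direct receptors, paralogs and regulators, and the 3 genes of most like pattern per gene, without clone names and with a highest group mean no lower than the all-gene median. Some further list genes (Olig2, Myod1, Myog, Ttr, Krt19, Cited1, Actn4, Sall1, Dmrt1, Lpl, Alpl and Aire) were named after their values were seen. Alternatives were pseudocounts of 1 and 64, median centring, quantile normalization, 2 filters on dim genes, the replicate number as a block, 2 treatments of probe sets, and leaving out each array. For the genes of like pattern, Pearson correlation was tried as well.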

Additional observations from a re-analysis of the deposited data

How the results depend on the processing

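Every difference of the 6 genes kept its sign under all 15 alternatives. These read the probe set used for each gene, except where all probe sets of a gene were averaged. Of the other probe sets, 1453588_at of Car3 was at -0.57 in day 7 minus ESC, against 1.62 for the one used. With a pseudocount of 1, 0 genes were called by limma in any contrast, higher or lower, and 0 of the related genes (2617, 2945 and 2216 genes had an unadjusted p under 0.05 in EpiSC-like cells against ESC, day 7 against ESC and day 7 against EpiSC-like cells); EpiSC-like cells minus ESC was 5.92 for Wt1 and 4.96 for Ndnf, day 7 minus ESC was -1.74 for Myrf, 2.17 for Ndnf and 2.79 for Cachd1, none called, and day 7 minus EpiSC-like cells was -3.28 for Tnfsf11. With a pseudocount of 64, 449 higher and 223 lower genes were called in EpiSC-like cells against ESC, 471 and 208 in day 7 against ESC and 123 and 83 in day 7 against EpiSC-like cells, with 11 related genes higher in the first, 11 higher and 4 lower in the second and 5 and 3 in the third; Wt1 was 3.48, Ndnf 3.57 and Tnfsf11 1.63 at day 3, and day 7 minus EpiSC-like cells was -2.39 for Ndnf and -2.22 for Tnfsf11. Centring arrays on their median moved the median of all genes to -0.13 and -0.20 in EpiSC-like cells and day 7 against ESC; 3 related genes were then higher and 5 lower at day 3, 82 genes lower at day 7 against ESC, 5 genes and 1 related gene lower in day 7 against EpiSC-like cells, and Ndnf at 1.58 lost its call in day 7 against ESC. Quantile normalization gave 157 higher genes and 3 higher related genes at day 3, 2 higher related genes in day 7 against ESC, 0 genes higher or lower in day 7 against EpiSC-like cells by limma (2646 at an unadjusted p under 0.05), and no call for Myrf (-1.82) or Ndnf (1.67). Keeping genes at or above the 25th percentile gave 444 and 209, 385 and 129, and 86 and 52 calls in the 3 contrasts, with 12 and 5, 10 higher, and 5 and 2 related genes; the median as the limit gave 479 and 292, 570 and 292, and 204 and 133, with 9 higher, 12 and 4, and 6 and 3 related genes, and Tnfsf11 (-0.93) was then called in day 7 against ESC. Averaging all probe sets of a gene gave 2.36 for Ndnf, 3.09 for Cachd1 and 2.41 for Car3 at day 3, 0.94 for Ndnf in day 7 against ESC (not called), -1.42 for Ndnf and -1.46 for Car3 in day 7 against EpiSC-like cells, and 1 higher and 1 lower related gene in day 7 against ESC and 1 lower in day 7 against EpiSC-like cells. With each probe set tested by itself, 146 and 57 were called at day 3 (3 and 1 related), 6 and 3 in day 7 against ESC (0 and 0 related) and 0 and 0 in day 7 against EpiSC-like cells by limma (4389 at an unadjusted p under 0.05), and Myrf (-1.68), Ndnf (1.79) and Cachd1 (2.70) were not called in day 7 against ESC. The cause of these shifts was not tested, save that filters leave fewer genes to adjust over.

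The same-numbered arrays deviated together with a correlation over genes of 0.283 for ESC and EpiSC-like cells, 0.0785 for ESC and day 7 and 0.0969 for EpiSC-like cells and day 7. The main fit left the numbers out. These correlations do not show that arrays of a set are unrelated, as the highest signals split by number. With the replicate number as a block, 0 genes and 0 related genes were called by limma in any contrast. More genes then had an unadjusted p under 0.05 in limma (3369, 3920 and 3055, against 2904, 3331 and 2564 in the main fit). The block also leaves fewer residual degrees of freedom, and the cause of the lost calls was not tested. Myrf stayed at -1.68, Ndnf at 1.79 and Cachd1 at 2.70 in day 7 against ESC.

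Leaving out each array gave 0 to 54 higher and 0 to 12 lower genes in EpiSC-like cells against ESC, 0 to 10 higher and 0 lower in day 7 against ESC and 0 in day 7 against EpiSC-like cells, and 0 to 1 related genes at day 3 and 0 otherwise. In day 7 against ESC it gave 2.35 to 3.06 for Cachd1, -1.89 to -1.47 for Myrf, 1.61 to 1.97 for Ndnf, 0.87 to 2.37 for Car3, -1.10 to -0.75 for Tnfsf11 and 0.21 to 2.39 for Wt1. The EpiSC-like minus ESC ranges were 3.51 to 4.22 for Cachd1, 3.35 to 4.84 for Car3, 1.04 to 1.46 for Myrf, 4.29 to 4.65 for Ndnf, 1.80 to 2.18 for Tnfsf11 and 3.56 to 5.74 for Wt1. Of 84 leave-one-out values of the related genes called, 1 was called. The number of arrays and dim signals near the pseudocount limit the precision.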
